A study of Mus musculus with 6 samples.

Results

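The 9 genes described here encode the pore-forming subunits of the AMPA receptors (Gria1 to Gria4) and the kainate receptors (Grik1 to Grik5), 9 of the 36793 genes in the deposited table. They were chosen by gene family, and each had a row in the table. AMPA and kainate receptors are tetrameric cation channels opened by glutamate. AMPA receptors carry most fast excitatory transmission in the central nervous system, and kainate receptors adjust release and excitability at many synapses. In sensory neurons of the dorsal root ganglion, the receptors are carried to the central terminals in the spinal cord and to the periphery. GluK1, the product of Grik1, is best known there from small-diameter neurons with C fibres. Schwann cells and satellite glia can also carry glutamate receptors.

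RNA came from lumbar dorsal root ganglia of 6 mice. Of these, 3 were wild type (mice 1, 2 and 3) and 3 were labelled NMDA-R knockout (mice 4, 5 and 6). By the title of the series, Grin1 was deleted in Schwann cells, and with it the obligatory NMDA receptor subunit GluN1. The labels used here name no Cre driver, age, sex or treatment. They give Schwann cells as the cell type, but the 12 pan-neuronal markers summed to 12483 to 15445 TPM (transcript abundance scaled for length and library size) and the 9 myelinating Schwann cell markers to 4597 to 6316 TPM, so the RNA is not from Schwann cells alone.

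The libraries held 28526704 to 36249163 expected counts each, the read numbers estimated by the RSEM program. A chi-square test of 10258 genes at an FDR of 0.05 found 0 that differed between knockout libraries 5 and 6, but 3382 to 7317 in each of the other 14 library pairs. Libraries 5 and 6 thus differed by less than could be told from sampling noise and were counted as 1 sample, which leaves 3 wild-type and 2 knockout samples. The other pairs within a group differed at 3646 to 6223 genes and pairs across the groups at 3382 to 7317, so this count did not separate the groups. Grin1 had 68.7, 115 and 75.0 CPM (library-scaled read abundance, not corrected for length) in the wild type against 82.1, 117 and 117 CPM for the knockout, with overlap (log2 fold change 0.21, standard error 0.26). The ganglion holds neurons outside the stated deletion, so Grin1 in whole ganglia is no check of the genotype. Knockout library 4 held 3.44 times the mean wild-type level of the 5 red blood cell markers and 4.57 times that of the 5 skeletal muscle markers. Of 7 spinal cord glia markers 5 passed the filter on low counts, with summed levels of 9.94 to 18.5 TPM, and of 7 spinal cord neuron markers 2 did, with 0.71 to 1.16 TPM.

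The subunits share a channel pore, and its loop holds the site at which RNA editing sets calcium flow. The stretch is shown because it lets the 9 genes be compared at 1 site, and because the gene counts cannot tell edited from unedited transcripts. In each line the 93 coding bases run 5′ to 3′ along the transcript, from GENCODE vM21, and the capitals mark the glutamine codon of the editing site.
Gria1: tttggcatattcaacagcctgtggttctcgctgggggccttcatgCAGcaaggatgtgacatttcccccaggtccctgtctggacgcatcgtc
Gria2: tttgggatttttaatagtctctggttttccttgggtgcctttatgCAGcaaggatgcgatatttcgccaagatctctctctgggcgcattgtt
Gria3: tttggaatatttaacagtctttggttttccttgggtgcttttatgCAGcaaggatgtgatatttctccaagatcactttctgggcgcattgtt
Gria4: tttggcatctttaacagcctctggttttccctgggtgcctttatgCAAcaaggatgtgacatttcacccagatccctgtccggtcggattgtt
Grik1: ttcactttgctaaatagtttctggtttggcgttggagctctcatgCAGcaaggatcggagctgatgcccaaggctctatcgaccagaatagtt
Grik2: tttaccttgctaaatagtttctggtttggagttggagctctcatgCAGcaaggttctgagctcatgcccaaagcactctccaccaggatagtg
Grik3: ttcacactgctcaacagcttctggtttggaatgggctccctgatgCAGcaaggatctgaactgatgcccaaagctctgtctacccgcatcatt
Grik4: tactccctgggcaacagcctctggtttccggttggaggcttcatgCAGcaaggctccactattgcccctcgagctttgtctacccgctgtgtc
Grik5: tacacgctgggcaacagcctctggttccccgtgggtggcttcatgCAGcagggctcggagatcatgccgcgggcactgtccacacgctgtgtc
The codon is CAG in 8 genes and CAA in Gria4. It lies at chr3:80706911-80706913 on the minus strand of GRCm38 in Gria2, in exon 11, at chr16:87940542-87940544 on the minus strand in Grik1, in exon 13, and at chr10:49244329-49244331 on the minus strand in Grik2, in exon 12. In mammals this codon is edited to read as arginine in nearly all Gria2 transcripts and in part of those of Grik1 and Grik2, which lowers the calcium permeability of the channel. In Grik4 and Grik5 the stretch lies within 1 exon (chr9:42547623-42547625 and chr7:25022497-25022499 for the codon, both on the minus strand), whereas in the other 7 genes it spans a junction of 2 exons. Over the 93 bases, pairs of AMPA subunits shared 72 to 84 bases, pairs of kainate subunits 54 to 81 and pairs across the families 52 to 59. The most alike were Gria2 and Gria3 with 84 bases and, among the kainate subunits, Grik1 and Grik2 with 81.

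By level per length, the kainate receptor RNA of the ganglion was mostly Grik1 and the AMPA receptor RNA mostly Gria4. Grik1 was the most abundant of the 9 genes in each library, at 233, 235 and 233 TPM in wild type and at 138, 154 and 155 TPM in knockout. Gria4 followed at 66.9, 60.4 and 65.8 TPM in wild type and 74.1, 76.4 and 77.1 TPM in knockout. Both stood apart from their neighbours in this order in either group. In wild type the next were Grik4 at 26.3 to 32.3 TPM, Grik5 at 16.7 to 26.4, Gria3 at 16.8 to 21.8, Gria2 at 11.6 to 16.8, Grik2 at 10.02 to 11.7 and Gria1 at 9.01 to 12.1, each overlapping its neighbour. Grik3 was lowest at 4.91 to 6.77 TPM in wild type and apart from Gria1, while in knockout its range of 7.80 to 13.4 TPM overlapped those of Grik2 and Gria1. These levels rest on 441 to 9150 expected counts per gene and library.

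**Figure D1:**
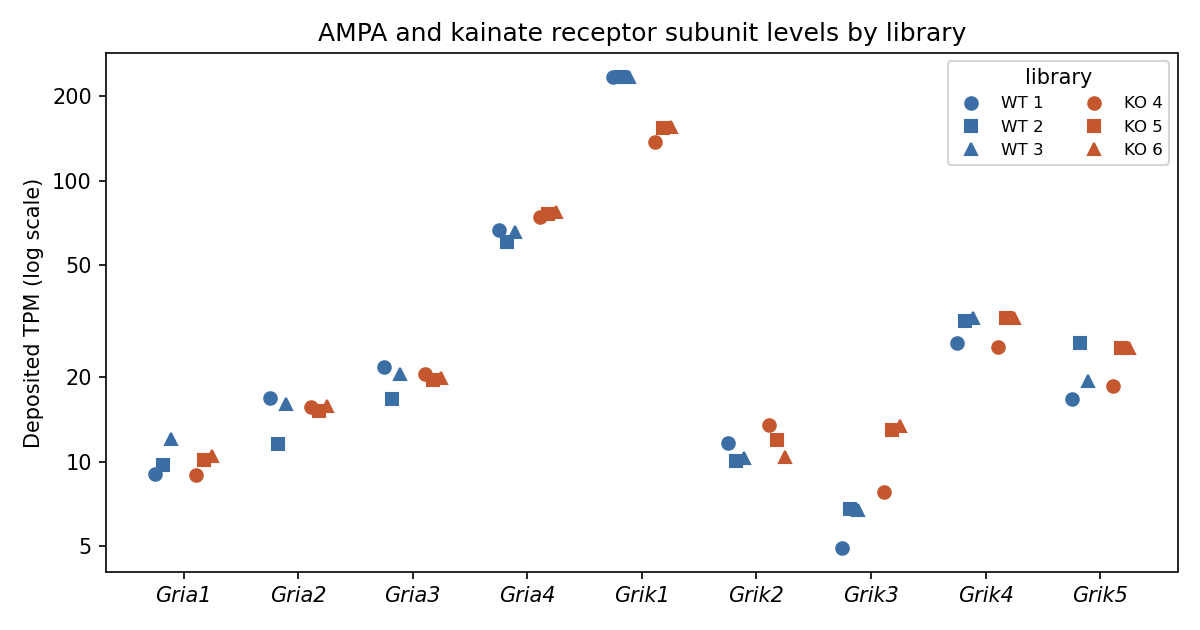
Deposited TPM of the 9 subunit genes (log axis), 1 point per library, blue for wild type and orange for knockout. Grik1 lies at 233 to 235 TPM in wild type and 138 to 155 TPM in knockout, above Gria4 and the 7 other genes in every library.

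In knockout compared with wild type, which asks how the deletion alters expression in the ganglion, Grik1 was lower and Grik3 and Gria4 were higher in each knockout library than in any wild-type library, but no subunit passed the test over all genes. With the edgeR quasi-likelihood test and Benjamini-Hochberg adjustment, 0 of the 9 genes passed, where 0.0952% of the 16809 genes tested did (16 genes, 0.0357% lower and 0.0595% higher). Of the 9 genes 2, Grik1 and Grik3, had an unadjusted p under 0.05, as had 9.14% of all genes. The groups of samples did not overlap for 3 of 9, 1 lower and 2 higher, against 15.5% of all genes lower and 11.8% higher, 27.4% in all. The median log2 fold change of the 9 genes was 0.07, with 6 positive and 3 negative, and that of all genes tested was 0.0012. In DESeq2 1 of the 9 passed, against 1.38% of all genes, and with the 6 libraries counted separately in edgeR 1 passed, against 0.871%. It was Grik1 in both.

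**Figure D2:**
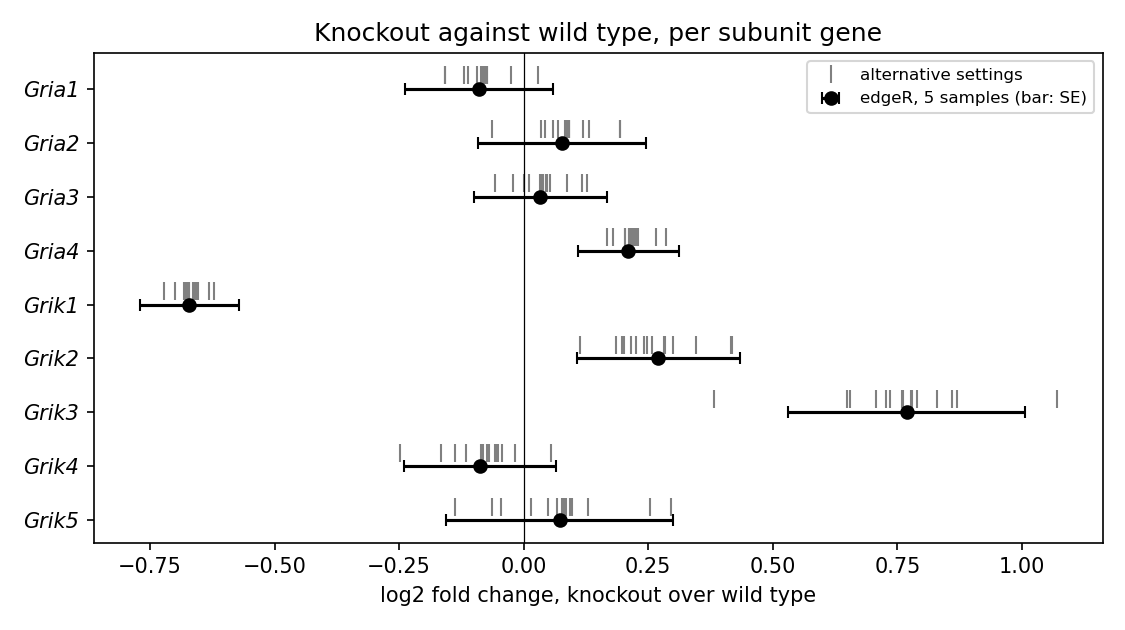
The log2 fold change of each subunit gene, knockout over wild type, in edgeR with 5 samples (black point, bar of 1 standard error) and under 15 alternative settings (grey ticks). Grik1 lies between -0.72 and -0.62 in the alternatives and Grik3 between 0.38 and 1.07, while Grik2 reaches from 0.11 to 0.42.

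Grik1 (ENSMUSG00000022935, chromosome 16, 87895900 to 88290265, minus strand, GRCm38) encodes GluK1, which forms homomeric kainate receptors. Wild-type levels were 275, 281 and 273 CPM, and knockout libraries 4, 5 and 6 had 168, 179 and 179.7 CPM. The wild-type values lie close together and every knockout value is far below them. The means were 276 ± 4.40 CPM (SD, n = 3) and 173 ± 8.37 CPM (SD, n = 2), a level 1.59-fold lower in the knockout. On the log2 scale the difference was -0.67 (standard error 0.10, edgeR quasi-likelihood adjusted p = 0.143), and Grik1 ranked 43 of 16809 genes by unadjusted p. The adjusted p was 0.0135 in edgeR with 6 separate libraries and 1.31e-06 in DESeq2, and between 0.0520 and 0.470 in the other 13 settings. The log2 fold change was -0.62 without knockout library 4 and -0.72 without libraries 5 and 6. The expected counts of Grik1 were whole numbers in all 6 libraries, as for reads assigned to 1 gene. GENCODE vM21 holds no other gene with bases in the exons of Grik1. The gene models behind the deposited counts differ from that release, as the lengths given below show. In bulk RNA, fewer cells of a type and less RNA per cell cannot be told apart.

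Grik3 (ENSMUSG00000001985, chromosome 4, 125490700 to 125714173, plus strand) encodes GluK3, a subunit of low glutamate affinity. Wild-type levels were 20.3, 28.5 and 27.7 CPM, and knockout levels 33.3, 52.7 and 54.4 CPM. Library 4 lies just above the wild type, and libraries 5 and 6, which count as 1 sample, lie well above it. The mean was 1.70-fold higher in the knockout, a log2 fold change of 0.77 (standard error 0.24, edgeR adjusted p = 0.431). It was 0.38 without libraries 5 and 6 and 1.07 without library 4, so its size rests on that sample.

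Grik2 (ENSMUSG00000056073, chromosome 10, 49094833 to 49788766, minus strand) encodes GluK2, the most widespread kainate subunit of the brain. It had 18.9, 14.6 and 15.2 CPM in wild type and 21.7, 18.1 and 16.9 CPM in knockout, which overlap (log2 fold change 0.27, standard error 0.16). Grik4 and Grik5 encode GluK4 and GluK5, the high-affinity subunits that need a GluK1, GluK2 or GluK3 partner to form a channel. Grik4 (chromosome 9, 42518135 to 42944493) had 50.3, 63.9 and 61.5 CPM in wild type and 49.3, 60.4 and 61.1 CPM in knockout. Grik5 (chromosome 7, 25009849 to 25072346) had 29.2, 47.1 and 33.7 CPM in wild type, and in knockout 33.4, 43.7 and 43.6 CPM. For both the spread within the groups exceeds the difference between them. Their log2 fold changes were -0.09 and 0.07, with standard errors of 0.15 and 0.23, and their sign turned when single samples were left out.

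Of the AMPA subunits, Gria4 (ENSMUSG00000025892, chromosome 9, 4417896 to 4796234, minus strand), which encodes GluA4, had 127, 114 and 122 CPM in wild type and 140.4, 138 and 140.1 CPM in knockout. Its knockout values lie just above the wild type, without overlap. Its log2 fold change of 0.21 (standard error 0.10, edgeR adjusted p = 0.579) ran from 0.17 to 0.29 in the alternatives. Gria2 (chromosome 3, 80681450 to 80802835) encodes GluA2, the subunit that makes AMPA receptors nearly impermeable to calcium. It had 52.9, 37.2 and 50.2 CPM in wild type and 50.8, 46.8 and 48.9 CPM in knockout, so all knockout values fall inside the wild-type range. Gria1 (chromosome 11, 57011387 to 57330244), for GluA1, had 22.6, 24.9 and 29.9 CPM in wild type and 23.1, 24.9 and 25.8 CPM in knockout. Gria3 (chromosome X, 41400854 to 41678601), for GluA3, had 50.8, 40.2 and 47.5 CPM in wild type, and in knockout 49.1, 44.9 and 45.9 CPM. The groups overlap for these 3 genes. Their log2 fold changes were 0.08 for Gria2, -0.09 for Gria1 and 0.03 for Gria3, with standard errors of 0.17, 0.15 and 0.13, and each turned sign without at least 1 sample. The counts of Gria2, Gria3 and Gria4 were not whole in some libraries, as for reads divided between genes, and which genes shared them was not tested.

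Shares of the summed level of a family show its makeup apart from its amount. The shares of all 5 kainate genes lay apart between the groups, as did that of 1 of the 4 AMPA genes, Gria4. By CPM, Grik1, Grik3 and Gria4 lay apart and the other subunits did not, where 27.4% of all genes lay apart. Grik1 made up 79.6, 75.8 and 77.2% of the summed TPM of the 5 kainate genes in wild type, against 67.8, 65.2 and 65.6% in knockout. Its mean shares were 77.5 ± 1.94% (SD, n = 3) and 66.6 ± 1.72% (SD, n = 2), with libraries 5 and 6 averaged. The difference of -11.0 percentage points had an exact two-sided permutation p of 0.2, taken by doubling the p of the smaller tail. In this form 0.2 is the smallest that 3 against 2 samples allow, so none of the 9 shares compared could pass 0.05. The other 4 kainate genes had larger shares in each knockout library than in any wild-type library, with differences of 2.12 points for Grik2, 2.66 for Grik3, 3.17 for Grik4 and 3.01 for Grik5. Shares add to a whole, so a lower Grik1 raises the others by construction. In TPM the 4 genes together were at 59.6, 74.9 and 68.8 in wild type and 65.4, 82.5 and 81.5 in knockout, which overlap. With Grik1 included, the summed kainate level was 301 ± 8.34 TPM (SD, n = 3) in wild type and 219.9 ± 23.8 TPM (SD, n = 2) in knockout.

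The summed AMPA level was 115, 98.5 and 114 TPM in wild type and 119, 121 and 123 TPM in knockout. Gria4 made up 59.1 ± 2.00% of it in wild type (SD, n = 3) and 62.5 ± 0.46% in knockout (SD, n = 2; exact permutation p = 0.2). The share of Gria2, whose product limits calcium entry, was 14.7, 11.8 and 14.1% in wild type and 13.1, 12.5 and 12.8% in knockout. All 3 knockout values lie inside the wild-type range (difference -0.60 points, exact permutation p = 0.6). The shares of Gria3 and Gria1 overlapped as well, at 17.0 to 19.0% and 7.87 to 10.5% in wild type.

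**Figure D3:**
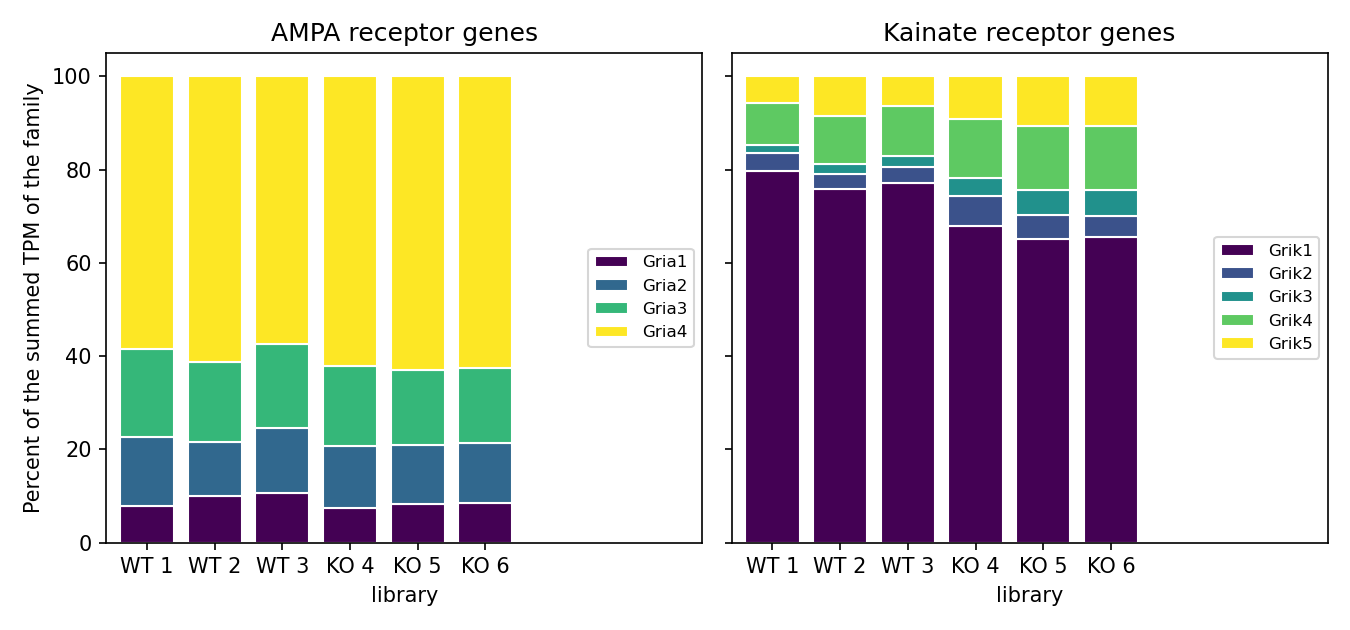
Percent of the summed TPM of each receptor family held by each subunit gene, 1 bar per library. In the kainate panel Grik1 takes 75.8 to 79.6% in wild type and 65.2 to 67.8% in knockout, while Gria4 takes 57.5 to 63.0% of the AMPA panel across the 6 libraries.

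The deposited gene length, in RSEM a mean over transcripts weighted by their estimated abundance, varies with which transcripts are used. For Grik1 it was 2604 to 2612 bases over the 6 libraries, with 3 transcripts listed in the deposited table, and the groups overlapped. It was widest for Grik2, at 3147 to 3647 bases with 8 transcripts listed, followed by Grik4, at 4088 to 4336 bases with 2, and the groups overlapped or had identical lengths for each of the 9 genes. Grik3 and Grik5 are listed with 1 transcript each. The lengths given for Grik1 are below the 2894 bases of the shortest of these transcripts in GENCODE vM21, so the gene models behind the table differ from that release. TPM, and with it the order of the genes, depends on that length.

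Kainate and AMPA receptors work with auxiliary subunits that change their gating and place them at synapses. The 2 kainate auxiliary genes are Neto1 and Neto2, whose products slow the closing of kainate channels. Neto1 had 7.69, 8.35 and 9.50 CPM in wild type and 12.3, 15.2 and 16.4 CPM in knockout. All knockout values lie above all wild-type values. This is a log2 fold change of 0.73 (standard error 0.16, edgeR adjusted p = 0.279). Over 15 alternatives it ran from 0.54 to 0.89 with adjusted p from 0.0336 to 0.944, the former in DESeq2. Neto2 had a log2 fold change of 0.01.

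Across 46 genes of 7 lists around the 2 receptors, 45 entered the test and 0 passed in edgeR, where 0.0952% of all genes did. DESeq2 called 3 of 46 (Neto1, Dlg2 and Olfm2), where it called 1.38% of all genes. With 6 separate libraries edgeR called 0, where it called 0.871% of all genes, and limma-voom called 0. Of the 45 genes 7, or 15.6%, had an unadjusted p under 0.05, all higher, against 9.14% of all genes. The groups did not overlap for 14, or 31.1%, against 27.4% of all genes. Their median log2 fold change was 0.14, with 34 positive and 11 negative.

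Among the 13 AMPA auxiliary genes, 12 were tested, 9 positive and 3 negative, with a median of 0.22. Cnih3, a cornichon that slows AMPA receptor desensitization, had a log2 fold change of 0.50 (standard error 0.19, edgeR adjusted p = 0.522). That of Cacng8, a transmembrane AMPA receptor regulatory protein, was 0.91 (standard error 0.37, edgeR adjusted p = 0.539). Cacng8 rests on only 13 to 49.6 expected counts per library. Cnih3 had 2.76, 2.79 and 2.82 CPM in wild type and 3.36, 4.55 and 4.43 CPM in knockout. Cacng8 had 0.391, 0.698 and 0.654 CPM in wild type, and in knockout 0.823, 1.07 and 1.58 CPM. The next by unadjusted p, Cacng5 and Cacng4, were at 0.49 and 0.42 on the log2 scale. Of the 4 biogenesis genes, Frrs1l, which helps assemble AMPA receptors in the endoplasmic reticulum, was at 0.41, and Abhd6, Cpt1c and Porcn were at 0.13, 0.09 and -0.02.

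Of 12 scaffold and trafficking genes 8 were positive, with a median of 0.12. Dlg2, which encodes the synaptic scaffold PSD-93, had 54.5, 55.6 and 58.5 CPM in wild type and 72.7, 77.6 and 79.4 CPM in knockout. Each knockout value lies above the wild type (log2 fold change 0.43, standard error 0.10, edgeR adjusted p = 0.306). Grip1, a scaffold that binds GluA2 and GluA3, was at -0.17, Grip2 at 0.42 and Dlg3 at 0.14. Of the 10 synaptic organisers, Olfm2, a secreted olfactomedin, had 5.29, 7.49 and 6.82 CPM in wild type and 10.1, 12.1 and 12.2 CPM in knockout (log2 fold change 0.77, standard error 0.18, edgeR adjusted p = 0.306). Olfm3 was at 0.36, Lrrtm2 at -0.20 and Nptx1, a neuronal pentraxin that gathers AMPA receptors, at 0.40. Of the RNA editing enzymes, Adarb1, which edits the Gria2 codon shown above, was at 0.34, Adar at 0.21 and Adarb2 at -0.61. Adarb2 rests on only 22 to 49 expected counts per library (standard error 0.35). Of the genes named from these lists, Neto2, Cacng4, Cpt1c, Porcn, Nptx1, Adar and Adarb1 turned sign in at least 1 alternative.

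**Figure D4:**
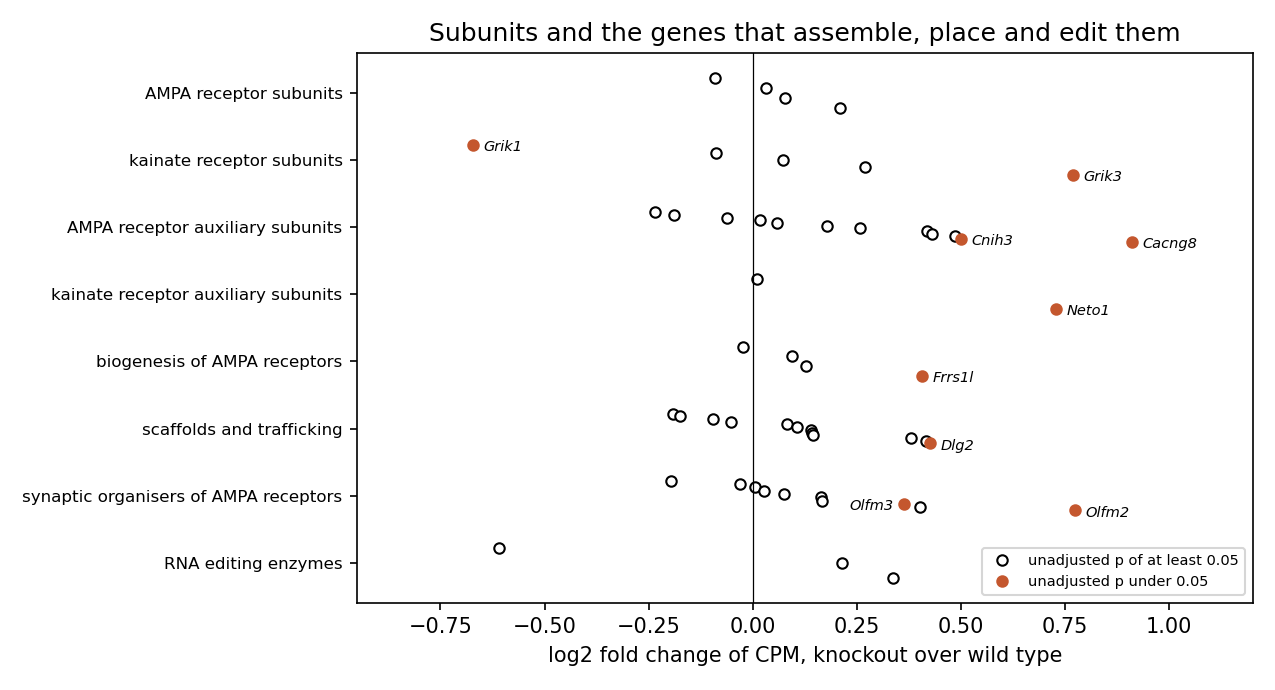
The log2 fold change of CPM, knockout over wild type, for the 9 subunit genes and the tested genes of the auxiliary, biogenesis, scaffold, organiser and editing lists, 1 point per gene. Filled points have an unadjusted p under 0.05 in edgeR, and Grik1 is the only filled point below 0.

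Markers of some neuron classes known for small fibres were also lower in the knockout, but those of peptidergic nociceptors were divided. Of the 6 peptidergic markers 3 were positive and 3 negative, with a median log2 fold change of -0.09. An unadjusted p under 0.05 in edgeR was found for 2 of the 6, both lower (9.14% of all genes had one). They summed to 3435 to 3868 TPM in wild type and 3486 to 3533 TPM in knockout, which overlap. Of 14 markers of non-peptidergic and itch neurons, 12 were negative with a median log2 fold change of -0.52. Of them 9 had an unadjusted p under 0.05 (9.14% of all genes did) and 0 passed in edgeR (0.0952% of all genes did). Their summed level was 1006 to 1118 TPM in wild type and 788 to 986 TPM in knockout. All 5 markers of C-low-threshold mechanoreceptors were negative with a median of -0.85. Of them 1, Th, passed (edgeR adjusted p = 0.025), against 0.0952% of all genes. The 5 markers summed to 272 to 328 TPM in wild type and 139 to 182 TPM in knockout. No marker of these lists was at 0. The part of these classes in the Grik1 difference was not tested.

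The 12 pan-neuronal markers had a median of 0.06, with a summed level of 12483 to 14986 TPM in wild type and 13730 to 15445 TPM in knockout. The 8 large-diameter neuron markers had a median of 0.32 with 7 positive. Their summed level was 6039 to 9187 TPM in wild type and 8255 to 12050 TPM in knockout, which overlap. The 9 myelinating Schwann cell markers were all positive with a median of 0.43, as were the 8 satellite glia markers with 0.39. The myelinating markers summed to 4597 to 5444 TPM in wild type and 6039 to 6316 TPM in knockout. The satellite glia markers summed to 5051 to 5494 TPM in wild type and 5685 to 6225 TPM in knockout. For both lists the knockout sums lay above those of the wild type without overlap. In edgeR 0 of either list passed (0.0952% of all genes did), and 4 of each had an unadjusted p under 0.05 (9.14% of all genes did). Of the peptidergic, Remak Schwann cell, fibroblast, endothelial and mural, and macrophage lists 0 markers passed, with medians of -0.09, 0.32, -0.13, 0.31 and -0.02. In the endothelial and mural list 5 markers were positive and 1 negative. Their sum nevertheless was lower in knockout without overlap, at 149 to 186 TPM in wild type and 127 to 131 TPM in knockout. The part of these cells in the values of Grik3, Gria4 and Neto1 was not tested.

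**Figure D5:**
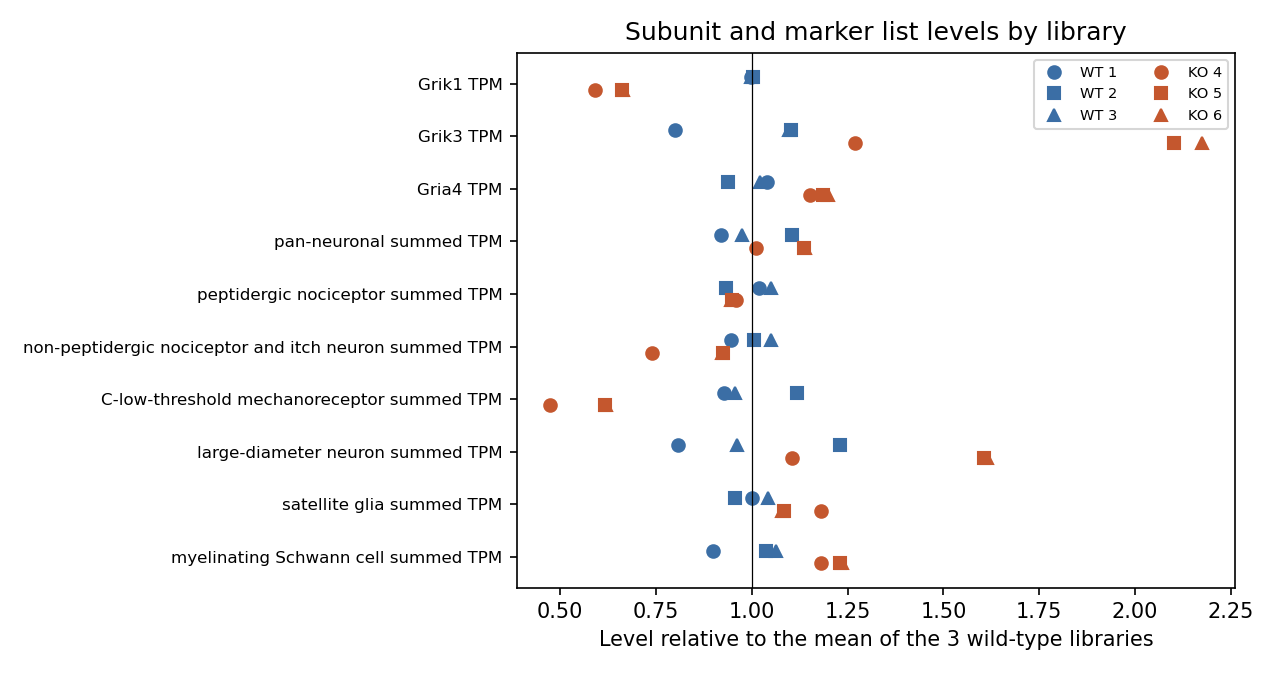
Level of 3 subunit genes and the summed level of 7 marker lists in each library, relative to the mean of the 3 wild-type libraries (line at 1). Knockout libraries 4, 5 and 6 are at 0.590, 0.661 and 0.665 for Grik1 and at 0.473, 0.616 and 0.620 for the C-low-threshold mechanoreceptor list, and the points of libraries 5 and 6 nearly coincide.

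The genes most like Grik1 across the 5 samples were sought among 11341 genes with a mean of at least 5 CPM, by Pearson's r of log2 CPM. The highest were Dapk2, a death-associated protein kinase, with r of 0.999, Penk, the enkephalin precursor, with 0.998, Slc29a1, a nucleoside transporter, with 0.997, Hacd3 with 0.997 and Derl1 with 0.997. Dapk2 had at most 13.1 CPM in the wild-type libraries and 7.61, 8.02 and 8.06 CPM in those of the knockout, a log2 fold change of -0.74. Penk was at -1.21, the 1 of the 5 to pass in edgeR (adjusted p = 0.0302), where 0.0952% of all genes did. Slc29a1, Hacd3 and Derl1 were at -0.43, -0.21 and -0.13. The 5 genes were picked by likeness to Grik1 in the same samples, so a difference between the groups is built into the choice. In all, 23 genes had an r above 0.99. With 5 samples in 2 groups, r mainly records the step between the groups, and 1 of the samples is the sum of libraries 5 and 6, so these values describe likeness only.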

How the data were processed

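Whole lumbar dorsal root ganglia of 3 wild-type and 3 knockout mice were profiled from total RNA with a stranded mRNA kit, per the labels' protocols. The tools named, per the submitters' processing notes, are RSEM 1.3.0, STAR 2.6.0a and Trimmomatic 0.38, and the build is GRCm38. Which annotation and strand setting they used is not stated there. The authors deposited expected counts, which are estimated reads per gene and not normalized, TPM values that sum to about 1000000 per library, and a gene length in bases, which is another kind of value given per library. Of 36793 gene identifiers 35243 matched a symbol in GENCODE vM21, which also gave positions and sequences.

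Expected counts were rounded, libraries 5 and 6 were summed, and genes were filtered with filterByExpr, scaled by TMM and tested in R 4.3.3 by quasi-likelihood F-test (edgeR 4.0.16, two-sided) with Benjamini-Hochberg adjustment over 16809 genes at 0.05. CPM of libraries 5 and 6 use the scaling of their sum. The standard error is the absolute log2 fold change over the square root of the F statistic. Shares were taken from TPM, with libraries 5 and 6 averaged. Alternatives were limma 3.58.1 on log2(TPM + 1) and log2(TPM + 0.1) at a mean of at least 0.5 TPM, limma-voom, DESeq2 1.42.0, upper-quartile scaling, no filter, removal of a GC trend (a GC value was found for 96.7% of genes), 6 separate libraries and leaving out samples. The code of the fit was run on simulated counts with the same scatter for every gene, which does not measure its power or errors in these libraries. Mice are separate by number only, so p-values measure the spread between these samples. The genes named are the 9 subunit genes, Grin1, members of the pathway lists that passed and up to 4 with the smallest p in each, and the 5 genes most like the subunit with the smallest p. For 1 of the pathway lists the values of single genes are not reported here. Marker lists are given by counts, and Th, which passed, was named after its value was seen. The subunit genes and the lists were chosen with earlier results of these data known.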

Additional observations from a re-analysis of the deposited data

How the results depend on the processing

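No paired analysis was possible because each mouse number occurs in 1 group only. The count of 16 genes passing became 144 with 6 libraries counted separately, 246 with DESeq2, 81 with no filter on low counts and 25 with the GC trend removed, and 7 to 16 when single replicates were left out, with 8 without wild-type 2, 10 without wild-type 3 and 7 without knockout 4. For the subunit genes the count of 0 became 1 with 6 libraries counted separately and 1 with DESeq2, Grik1 in both. Counting 6 libraries treats libraries 5 and 6 as 2 samples by construction, and otherwise the cause was not tested. When single replicates were left out, the log2 fold change ran from -0.16 to 0.029 for Gria1, from -0.063 to 0.19 for Gria2, from -0.057 to 0.13 for Gria3, from -0.17 to 0.056 for Grik4 and from -0.045 to 0.30 for Grik5, and the cause of these turns was not tested. Grik5 was at -0.064 with the GC trend removed and at -0.14 without knockout replicates 5 and 6 together. Grik1, Grik2, Grik3 and Gria4 kept their sign in all 15 alternatives. Each of the 9 shares kept its sign in all 7 alternatives, though Gria2 was at only -0.018 points without wild-type 1. Among the alternatives, the expected count per kilobase of gene length gives nearly the same shares by construction. Shares within a family also add to a whole, so their signs are not separate results. In the fits without knockout 4, or without 5 and 6, a lone knockout sample remained, and its spread was taken to equal that of the wild type.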
